A study of Mus musculus with 6 samples.

Results

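The transporters that move lactate and glucose across the membranes of testis cells, together with the chaperones that carry the lactate transporters to the cell surface, were followed in whole testes of wild-type and Dazap1 mutant mice. The group holds 8 genes: the monocarboxylate transporters Slc16a1, Slc16a3 and Slc16a7, the chaperones Bsg and Emb, and the glucose transporters Slc2a1, Slc2a3 and Slc2a8. Their probe sets were taken by exact gene symbol in the platform annotation, which gave 16 of the 45037 probe sets deposited. Of these, 14 passed a filter on low values, which kept probe sets whose geometric mean signal over the 6 arrays reached the 40th percentile (48.0), and were tested among 27022 probe sets. The other 2, a dim probe set of Slc16a1 and one of Emb, fell under it. The brightest probe set stood for each gene, here as in all 13447 genes tested.

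The study asked how the loss of normal DAZAP1, an RNA-binding protein of the testis, altered transcripts during spermatogenesis. Total RNA of whole testes at postnatal day 21 was hybridised to one-colour Affymetrix expression arrays, with 3 wild-type samples (Wt) and 3 samples homozygous for the Floxed with Neo allele of Dazap1 (Fn). Both groups had a mixed C57BL/6 and 129 strain background and carried no other named allele or treatment. The Fn allele is not a null: it is carried by every cell of the mouse and makes an aberrant protein, and most homozygotes die around birth, so the Fn samples come from survivors. The labels call the samples biological replicates without naming the animals.

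The Dazap1 probe set had signals of 4323, 4462 and 5046 in Wt and 2538, 2735 and 2819.8 in Fn testes. This was a log2 change, Fn minus Wt, of -0.77 (SE 0.088, adjusted p = 6.7e-05 from limma), and the groups did not overlap. Its probes have no stated place relative to the altered stretch of the gene, which limits it as a check of the labels. Values on these arrays are MAS5 signals, a linear intensity, and levels of different probe sets are not set against each other below. The summed signals of marker lists add different probe sets and mostly follow the brightest of them. The median log2 change of all 13447 genes was 0.32, and a change of 0 on this scale lies below that of most genes. The tissue label was checked against markers of testis cells. Of 6 general germ cell markers 6 were measurable, and their summed signal was 59340 to 61770 in Wt and 53010 to 54870 in Fn testes. At an adjusted p under 0.05 from limma, 3 of them were lower, 2 were higher and 1 did not pass (median -0.29). Of all genes tested, 24.7% were called lower and 44.9% higher. Of 14 Sertoli cell markers 13 passed the filter, with sums of 42720 to 49830 in Wt and 70820 to 71850 in Fn testes.

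In the seminiferous tubule, Sertoli cells take up glucose, break it down to lactate and release the lactate to the germ cells behind the blood-testis barrier, where spermatocytes and spermatids burn it as their preferred fuel. Monocarboxylate transporters of the SLC16 family carry lactate together with a proton, and need a glycoprotein partner, basigin (Bsg) or embigin (Emb), to reach the plasma membrane. Glucose enters through facilitative transporters of the SLC2 family, whose members differ in affinity and in the cells that use them.

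All 8 genes passed the test at an adjusted p under 0.05, 4 of them lower and 4 higher in Fn testes. Over all genes tested, 24.7% were called lower and 44.9% higher, and with each array centred on its median 27.4% and 33.1%, when the median change of all genes was 0.17. Slc16a7, Slc2a3, Slc2a8 and Bsg fell, with log2 changes of -0.22 for Bsg to -3.83 for Slc16a7, and Slc16a1, Slc16a3, Emb and Slc2a1 rose by 0.87 to 1.15. Centring changed none of these 8 directions or calls, and the 4 that rose then had changes of 0.71 (Slc16a1), 0.99 (Slc16a3), 0.96 (Emb) and 0.78 (Slc2a1). Among single probe sets, 7 of the 14 tested were lower and 7 higher, where 20.2% and 41.8% of all probe sets were called. For each of the 8 genes the 3 Fn values lay on one side of the 3 Wt values. Of all genes, 26.6% had every Fn value below every Wt value and 48.9% had every Fn value above. In whole tissue, a smaller or larger share of a cell type, less or more RNA per cell and an earlier stage of the germ cells cannot be told apart. This holds for each change below. At this age the paper describes both groups as holding mostly pachytene spermatocytes, with haploid spermatids few or absent. It also raised the concern that growth retardation might leave Fn spermatocytes at an earlier stage than those of Wt.

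**Figure D1:**
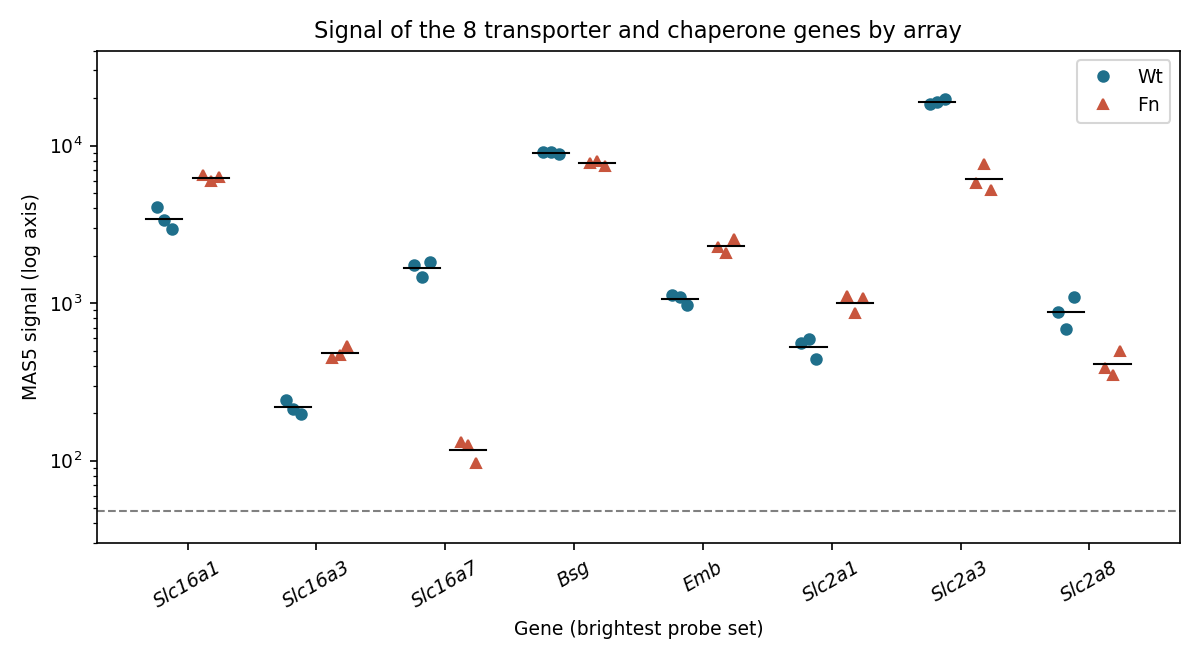
MAS5 signal (linear intensity on a log axis) of the brightest probe set of each of the 8 genes; circles are the 3 Wt arrays, triangles the 3 Fn arrays, short bars their means on the log scale, and the dashed line the filter level (48.0). For every gene the groups are apart, widest for Slc16a7 (arithmetic means of 1675 in Wt against 117.9 in Fn) and narrowest for Bsg (9027 against 7743).

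Slc16a1 encodes MCT1, a widespread carrier that works in both directions according to the lactate gradient. Its probe set had signals of 4092, 3378 and 2947 in Wt and 6515, 5958 and 6357 in Fn testes. The lowest Fn value stood well above the highest Wt value. The mean of 3472 ± 578 in Wt became 6277 ± 287 in Fn testes (SD, n = 3 each). The log2 change was 0.87 (SE 0.11, 95% interval 0.61 to 1.12, adjusted p = 1.5e-04 from limma), or 1.82-fold. It exceeded the median of all genes by 0.54, and 80.6% of genes had a lower change.

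Slc16a3 encodes MCT4, a carrier typical of cells that export lactate from glycolysis. Its signals were 244.0, 213.5 and 198.4 in Wt and 445.7, 471.0 and 537.2 in Fn testes. The groups did not overlap, and each Fn value was well beyond the spread of the Wt values. This was a log2 change of 1.15 (SE 0.15, 95% interval 0.82 to 1.48, adjusted p = 1.4e-04 from limma), a 2.22-fold rise from 218.6 ± 23.2 to 484.6 ± 47.3 (SD, n = 3 each).

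Slc16a7 encodes MCT2, a high-affinity carrier suited to taking up lactate at low concentration and known from the tails of spermatids and sperm. Its signals were 1749.7, 1456 and 1819 in Wt and 130.9, 126.5 and 96.4 in Fn testes. Each Fn array was far below every Wt array. The log2 change was -3.83 (SE 0.16, 95% interval -4.19 to -3.48, adjusted p = 1.9e-07 from limma), 14.3-fold lower, from 1675 ± 193 to 117.9 ± 18.8 (SD, n = 3 each). Only 2.15% of all genes had a lower change.

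Within each array the log ratio of 2 probe sets does not depend on the factor by which the array was scaled, so the genes were also compared with each other by the difference of their changes. The change of Slc16a7 minus that of Slc16a1 was -4.70 on the log2 scale (SE 0.23), a ratio that moved 26.0-fold, and its change minus that of Slc16a3 was -4.98 (SE 0.26). The changes of Slc16a3 and Slc16a1 differed by 0.28 (SE 0.10). Each of these 3 differences had an exact two-sided permutation p = 0.10 over the samples, the smallest that 3 against 3 can give, and 0.117 after Benjamini-Hochberg adjustment over the 7 pairs of genes compared.

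Basigin (Bsg), the usual partner of MCT1 and MCT4, is itself needed for male fertility. Its only probe set in the table had signals of 9152, 9079 and 8849.6 in Wt and 7807, 7969 and 7454 in Fn testes. The groups were apart although the shift was small. The mean went from 9027 ± 158 to 7743 ± 263 (SD, n = 3 each), a change of -14.2%. The log2 change was -0.22 (SE 0.061, 95% interval -0.36 to -0.09, adjusted p = 0.010 from limma). This is the weakest call of the 8: after quantile normalization the change was -0.09 with an adjusted p of 0.22, and with a prior variance that ignored intensity the adjusted p was 0.083.

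Embigin (Emb), a relative of basigin and the preferred partner of MCT2, is also known as a surface protein of early germ cells. Its brightest probe set read 1123, 1087 and 974.6 in Wt and 2277, 2086 and 2542 in Fn testes. The second probe set read 781.0, 684.2 and 679.5 against 1229, 1291 and 1307. In both, all Fn arrays were above all Wt arrays. The changes were 1.12 for the brighter (SE 0.11, 95% interval 0.87 to 1.36, adjusted p = 2.5e-05 from limma), a 2.17-fold rise, and 0.84 for the other (adjusted p = 1.2e-04). The third lay under the filter, at 8.8, 20 and 24.4 against 3.5, 24.4 and 17.4, and was not tested.

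The chaperones moved in opposite directions. The change of Emb was 1.34 above that of Bsg (SE 0.12), a 2.52-fold shift of their ratio (exact two-sided permutation p = 0.10, adjusted 0.117). With the mean of all probe sets, the dim one of Emb included, the difference was 0.70. Emb, Slc16a1 and Slc16a3 rose, while Slc16a7 fell and Bsg fell slightly. The partner preferences named above are general ones. Which chaperone served which carrier in these testes was not measured.

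Slc2a1 encodes GLUT1, the basal glucose carrier and one of the main routes of glucose into Sertoli cells. Its brightest probe set read 556.6, 591.6 and 439.3 in Wt and 1103, 867.8 and 1074 in Fn testes. Every Fn value exceeded every Wt value. On the log2 scale the gene rose by 0.94 (SE 0.15, 95% interval 0.61 to 1.28, adjusted p = 4.8e-04 from limma), 1.92-fold. The other 2 probe sets of the gene gave 1.09 (adjusted p = 1.4e-04) and 0.94 (adjusted p = 4e-04), so the 3 readings of Slc2a1 lay close together.

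Slc2a3 encodes GLUT3, a high-affinity glucose carrier known from neurons and germ cells, and was read by 4 probe sets. The brightest had signals of 18480, 18978 and 19685 in Wt and 5814, 7602 and 5253 in Fn testes. The second read 12835, 13592 and 14688 against 2240.1, 3438 and 1937. The third read 5010.2, 5006 and 7609 against 584.9, 839.4 and 661.1. In all of these the lowest Wt value stood far above the highest Fn value. The fourth read 2908, 2870.5 and 4459.8 against 289.9, 449.1 and 330.0, again with each Fn array far below each Wt array.

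The probe sets of Slc2a3 gave one direction and different sizes. The log2 change was -1.63 for the brightest (SE 0.12, 95% interval -1.90 to -1.37, adjusted p = 3.6e-06 from limma), 3.10-fold lower, and -2.48 (adjusted p = 3.3e-06), -3.07 (adjusted p = 1e-06) and -3.25 (adjusted p = 1.5e-06) for the others, the last 9.53-fold lower. Within arrays, the fall of the brightest probe set was smaller than those of the others by 0.84, 1.44 and 1.62 on the log2 scale (exact two-sided permutation p = 0.10 for each). The brightest probe set lay at the 99.4th percentile of signal of all probe sets, and its name, like that of the second, carries a suffix that marks probes that may match other transcripts. Whether brightness or such matches bear on the smaller fall was not tested. The fall of Slc2a3 is therefore given as 3.10-fold to 9.53-fold. Among Fn arrays the second sample was the highest in all 4 probe sets, and among Wt arrays the third was.

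Slc2a8 encodes GLUT8, a carrier held mostly on membranes inside the cell and known from the acrosome region of developing spermatids. Its signals were 881.1, 687.6 and 1095 in Wt and 390.0, 348.3 and 499.9 in Fn testes. The groups did not overlap, although the Wt values were widely spread. The log2 change was -1.10 (SE 0.19, 95% interval -1.53 to -0.67, adjusted p = 8.6e-04 from limma), 2.14-fold lower.

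**Figure D2:**
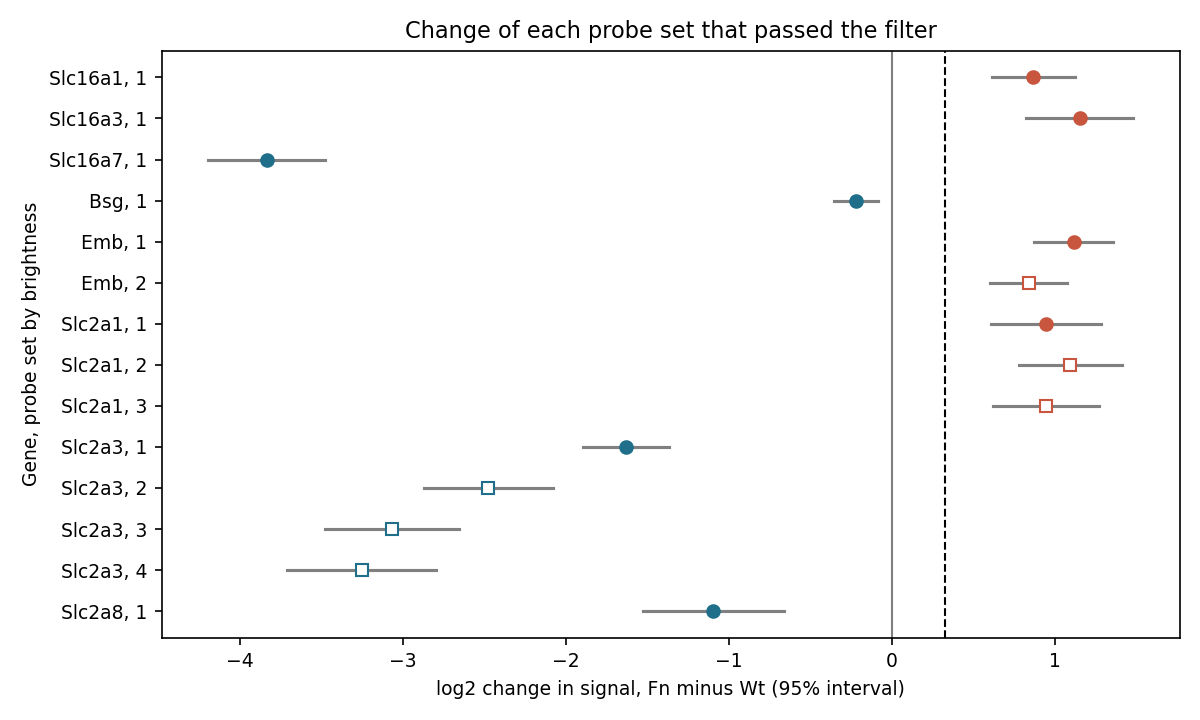
Log2 change in MAS5 signal, Fn minus Wt, of each tested probe set of the 8 genes, with its 95% interval from limma, against the median of all genes tested (dashed, 0.32); filled circles are the brightest probe set of a gene and open squares its others. The probe sets of each gene share a sign, and those of Slc2a3 spread from -1.63 to -3.25.

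The glucose carriers also moved apart. The change of Slc2a3 minus that of Slc2a1 was -2.57 (SE 0.31) and that of Slc2a8 minus Slc2a1 was -2.04 (SE 0.34), each with the smallest exact two-sided permutation p, 0.10 (adjusted 0.117). The changes of Slc2a8 and Slc2a3 differed by 0.54 (SE 0.35, exact two-sided permutation p = 0.30). Between same-numbered samples this difference was 0.49, 0.34 and 0.78 (mean 0.54, SE 0.13 over the pairs), and an exact two-sided sign test over 3 pairs gave p = 0.25, the smallest it can give. Both differences that involve Slc2a3 depend on its reading. With the mean of all probe sets of a gene, Slc2a8 minus Slc2a3 was 1.51 and Slc2a3 minus Slc2a1 was -3.60.

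**Figure D3:**
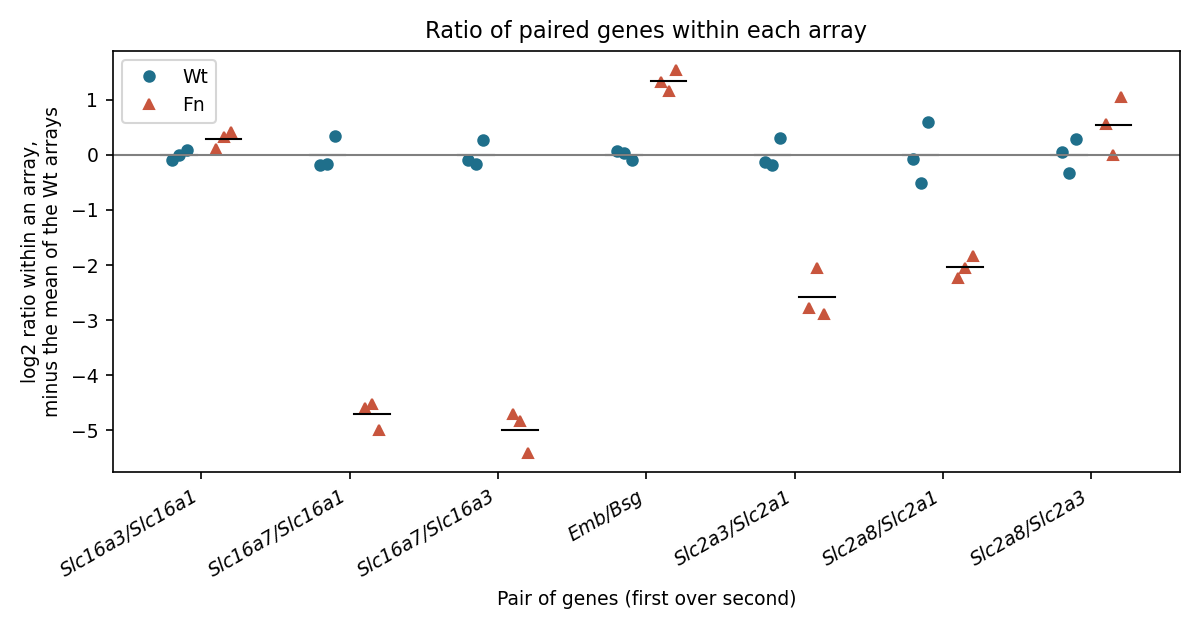
Log2 ratio of the signals of 2 genes within each array, centred on the Wt mean, for the 7 pairs compared; circles are the 3 Wt arrays, triangles the 3 Fn arrays and bars their means. The Fn arrays are apart from the Wt arrays in every pair but Slc2a8 over Slc2a3. For Slc16a3 over Slc16a1 they nearly touch: before centring, the highest Wt ratio was -3.893 and the lowest Fn ratio -3.87.

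Wt and Fn samples that share a replicate number were also compared as pairs, although the study states no such pairing. The third pair differed most in 7 of the 8 genes and the second least in 6. For Slc16a7 the 3 differences were -3.74, -3.53 and -4.24, and for Slc2a1 they were 0.99, 0.55 and 1.29.

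Promoter sequences of 5 of the 8 genes were in the RefSeq table of assembly GRCm38.p6, which gives 250 bases before and 50 after each gene's start. The 3 carriers that rose are shown because each holds the hypoxia response core ACGTG. These are the letters bound by HIF1A, which is known to switch on glycolytic genes. Several motifs were searched, and ACGTG was marked with the directions of change already known. Capitals mark ACGTG on either strand, and CACGTG where 2 matches overlap. The windows are chr3:104638414-104638713 (plus strand) for Slc16a1, chr11:120948817-120949116 (plus strand) for Slc16a3 and chr4:119108495-119108794 (plus strand) for Slc2a1, each written 5′ to 3′.
Slc16a1: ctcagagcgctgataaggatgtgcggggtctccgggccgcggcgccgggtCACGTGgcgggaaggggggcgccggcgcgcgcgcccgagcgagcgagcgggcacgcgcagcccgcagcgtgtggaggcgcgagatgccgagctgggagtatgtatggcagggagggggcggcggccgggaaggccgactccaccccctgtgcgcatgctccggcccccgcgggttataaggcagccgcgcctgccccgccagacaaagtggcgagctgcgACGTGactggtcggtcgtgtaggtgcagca
Slc16a3: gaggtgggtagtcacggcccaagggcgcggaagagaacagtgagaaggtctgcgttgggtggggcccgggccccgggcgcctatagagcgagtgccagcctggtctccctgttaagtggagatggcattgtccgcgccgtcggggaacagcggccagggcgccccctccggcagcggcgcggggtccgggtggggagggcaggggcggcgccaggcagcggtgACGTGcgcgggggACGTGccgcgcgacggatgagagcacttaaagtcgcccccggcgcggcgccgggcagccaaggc
Slc2a1: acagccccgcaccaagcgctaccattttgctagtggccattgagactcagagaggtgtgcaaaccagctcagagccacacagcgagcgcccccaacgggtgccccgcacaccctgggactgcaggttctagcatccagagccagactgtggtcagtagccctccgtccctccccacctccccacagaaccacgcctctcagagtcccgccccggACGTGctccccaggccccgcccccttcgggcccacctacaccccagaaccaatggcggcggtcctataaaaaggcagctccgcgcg

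Slc16a1 held 3 matches, of which 2 are the same CACGTG read on both strands, 200 bases before the start. Slc16a3 held 2, at 27 and 14 bases before the start, and Slc2a1 held 1, at 36 bases. Among all 32851 promoters, 19.6% hold ACGTG and 7.15% hold CACGTG, which is also the E-box motif. Other forms of the HIF1A core were not searched. The windows of Slc16a1, Slc16a3 and Slc2a1 were 73.7%, 73.3% and 65.3% G or C, against a median of 52.7%. The shares over all promoters were not matched for G and C content. The window of Emb, which also rose, was 57.7% G or C and held no ACGTG. The GC box GGGCGG was in the windows of Slc16a1, Slc16a3, Slc2a1 and Emb, and in 35.7% of all promoters.

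Slc2a8, which fell, is shown because its promoter is the only one in the table from the 4 genes that fell, at chr2:32982034-32982333 (minus strand). Capitals mark CCAAT, the core of the CCAAT box, on either strand.
Slc2a8: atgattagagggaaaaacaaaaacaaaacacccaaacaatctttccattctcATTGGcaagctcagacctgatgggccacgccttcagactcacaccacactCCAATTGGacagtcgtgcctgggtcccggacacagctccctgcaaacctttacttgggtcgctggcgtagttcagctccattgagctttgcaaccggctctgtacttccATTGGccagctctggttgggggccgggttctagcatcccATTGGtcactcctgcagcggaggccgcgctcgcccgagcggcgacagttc

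CCAAT occurred 5 times in that window and in 37.4% of all promoters at least once. Its stretch CCAATTGG holds overlapping matches on opposite strands. The window of Slc2a1, which rose, also held 1 CCAAT, and those of Slc16a1, Slc16a3 and Emb held none. CCAAT was marked for Slc2a8 alone, with the directions of change already known. Neither ACGTG nor GGGCGG was found in the Slc2a8 window. The cAMP response element TGACGTCA, the site of the spermatid regulator CREM, was in none of the 5 windows and in 1.79% of all promoters, and its core TGACG was in that of Slc16a3, overlapping one ACGTG, and in 20.8% of all. These are matches of letters, and binding was not measured.

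Other carriers of these families, sodium-coupled carriers, enzymes of lactate and pyruvate handling, and partners and regulators of the carriers made up 5 lists of 64 genes, of which 46 could be tested. The glycolytic enzymes from glucose to pyruvate were not among them. Of the 46, 10 were lower, 28 higher and 8 did not pass, with a median change of 0.71 against 0.32 over all genes. The shares of all genes called, 24.7% lower and 44.9% higher, are the background for the count of each list. Of 6 other members of the SLC16 family that could be tested, 3 were higher at an adjusted p under 0.05 and the other 3 did not pass, a share near that background. The 3 that rose were Slc16a4 (0.99, adjusted p = 0.0011 from limma), the aromatic amino acid carrier Slc16a10 (0.70, adjusted p = 0.0020) and Slc16a6 (1.10, adjusted p = 0.0022). The 2 tested probe sets of Slc16a4 ran from 0.34 to 0.99, and the 2 of Slc16a10 from 0.34 to 0.70. Of 6 other members of the SLC2 family 1 was lower and 4 higher. The 1 that fell, Slc2a5, the fructose carrier of sperm, read 4454, 4821 and 5896 in Wt and 205.3, 341.7 and 141.6 in Fn testes, a change of -4.55 (SE 0.27, adjusted p = 9.9e-07 from limma), 23.4-fold lower and larger than that of any of the 8 genes. Those that rose were Slc2a12 (1.13), Slc2a2 (1.28), Slc2a4 (0.91) and the inositol carrier Slc2a13 (1.56). Slc2a13 read 62.5, 46.9 and 27.5 in Wt and 114.9, 111.2 and 162.6 in Fn testes. Its Wt mean of 45.6 was under the filter level of 48.0, which it passed through its Fn values. Slc2a2 read 55.3, 56.7 and 48.0 in Wt testes, near that level, so both rises may start from background. Of 9 sodium-coupled carriers only Slc5a10 could be tested, with a change of 0.49 (adjusted p = 0.12).

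The next list holds lactate dehydrogenase genes, genes of pyruvate entry into the mitochondrion, and the kinases and phosphatases that regulate pyruvate dehydrogenase. It moved both ways, and of 18 tested 8 fell, 9 rose and 1 did not pass, with a median of 0.25. Ldha, the lactate dehydrogenase subunit of glycolytic cells, read 13223, 13634 and 13977 in Wt and 2924, 3426 and 2473 in Fn testes, a change of -2.22 (adjusted p = 3.5e-07 from limma). The groups did not overlap. The germ cell subunit Ldhc, which also stands in the spermatocyte marker list below, changed by -1.77 (adjusted p = 6.2e-06) and its relative Ldhal6b by -3.23 (adjusted p = 2.1e-06). Ldhb, the subunit of oxidative cells, changed by 0.87 (adjusted p = 2.6e-05) and the pyruvate dehydrogenase kinase Pdk1 by 1.27 (adjusted p = 2.2e-05).

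Of 15 partners and regulators of these carriers 1 was lower, 12 were higher and 2 did not pass, with a median of 0.91. Neuroplastin (Nptn), another partner of monocarboxylate carriers, changed by 1.01 (adjusted p = 1.1e-05 from limma) and Hif1a, which encodes the factor named above, by 1.32 (adjusted p = 2.4e-05). The 2 tested probe sets of Nptn ran from 0.27 to 1.01, and the 3 of Hif1a from 0.85 to 1.32. Txnip, which takes glucose carriers off the membrane, changed by 0.79 (adjusted p = 1.1e-04) and the insulin receptor Insr by 1.11 (adjusted p = 2.8e-04). Whether any of these regulators acted on the carriers was not tested.

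**Figure D4:**
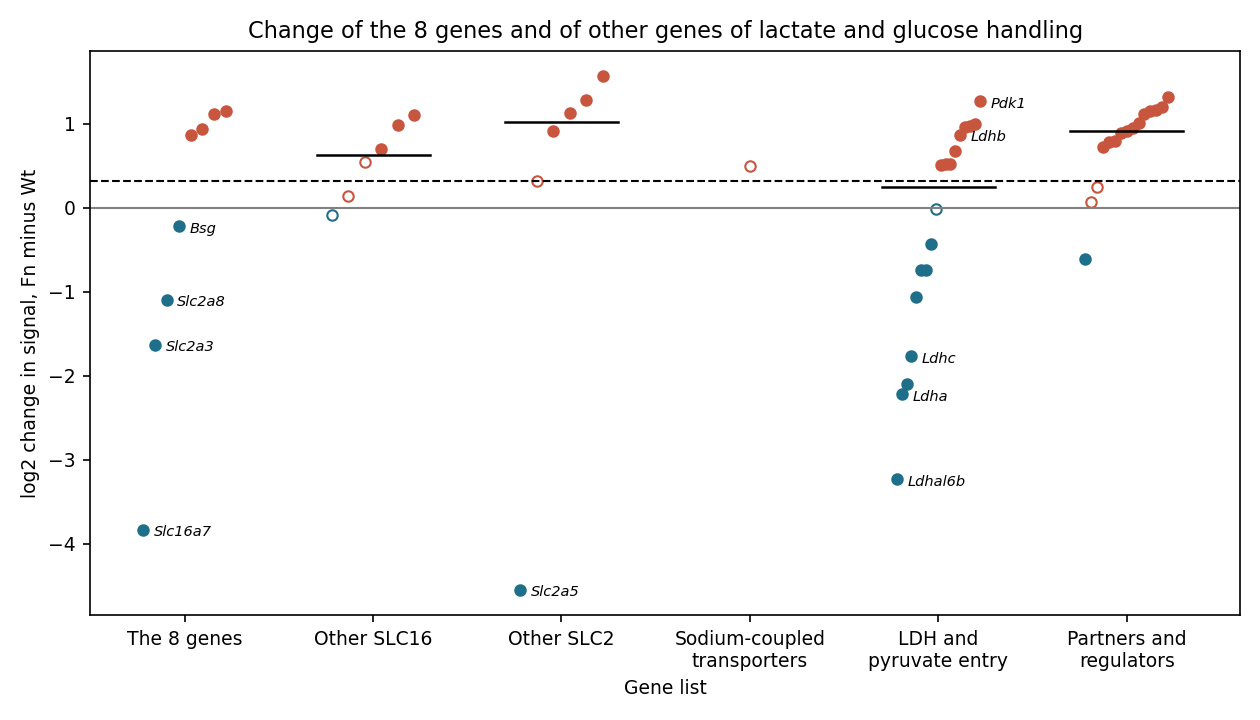
Log2 change in MAS5 signal, Fn minus Wt, of the 8 genes and of the other genes in the 5 lists; filled points passed the test and open points did not, bars are list medians and the dashed line the median of all genes tested (0.32). Slc2a5 at -4.55 lies lowest, and most genes of the partner list lie above the dashed line.

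Markers of the cells that use these carriers moved as well, and their counts are read against the same 24.7% lower and 44.9% higher of all genes. Of 8 round spermatid markers 8 were lower (median -3.43), and their summed signal was 20030 to 23580 in Wt and 2183 to 2832 in Fn testes. Of 12 pachytene and diplotene spermatocyte markers 11 were lower and 1, Mybl1, did not pass (median -1.95), with sums of 85430 to 92890 in Wt and 19390 to 27880 in Fn testes. Of the spermatocyte markers, Ccna1, Piwil1, Ovol1 and Spata16 were among the genes that the paper selected as decreased in Fn testes in this same comparison. Their calls were therefore known in advance. The spermatid and spermatocyte lists moved in the direction of Slc16a7, Slc2a3, Slc2a8 and Bsg. Of 13 Sertoli cell markers 12 were higher and 1 did not pass (median 0.83), of 9 spermatogonial markers 8 were higher and 1 lower (median 0.88, sums of 12670 to 13870 and 17600 to 19540), and of 10 peritubular and stromal markers 9 were higher and 1 did not pass (median 0.98, sums of 22150 to 28810 and 46260 to 49090). These moved in the direction of Slc16a1, Slc16a3, Emb and Slc2a1. The part of each cell type in the changes of the carriers was not tested.

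Other cell types were less clear. Of 5 Leydig cell markers 3 were higher (median 0.48), with overlapping sums of 6260 to 10300 in Wt and 6345 to 12240 in Fn testes. Of 8 endothelial markers 3 were higher (median 0.49), a share under the 44.9% of all genes, with sums of 912.4 to 1054 and 1382 to 1420. Of 10 macrophage markers 5 were higher and 1 lower (median 0.41), with sums of 5295 to 6622 and 6741 to 9566. Of 6 red cell markers, a check for blood, 1 passed the filter, Alas2 (0.71), and the alpha-globin gene Hba-a1 and the anion exchanger Slc4a1 were under it. The part of these cells in the changes was not tested either.

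Genes with the most similar pattern over the 6 arrays were found by the root mean square difference of their centred log2 signals. Genes with provisional symbols, such as those ending in Rik, were left out of this search. Nearest to Slc16a7 were Spag16, a protein of the sperm tail axoneme (0.088), Arrdc5 (0.10) and Zpbp, an acrosomal protein that binds the egg coat (0.11). The median distance over the genes searched was 2.11. Nearest to Slc2a3 were the germ cell PHD finger gene Phf7 (0.041), Sfmbt1 (0.052) and the talin gene Tln1 (0.052), against a median of 1.04. Nearest to Slc2a8 were Ranbp9 (0.077), Gabbr1 (0.078) and Dyrk1b (0.080), against 0.825. Nearest to Slc16a3 were Taf1 (0.030), the cohesin subunit Smc1a (0.041) and the protease gene Plat (0.046), against 0.466, and nearest to Emb were Sparcl1 (0.034), Cdc23 (0.036) and Mtcl1 (0.038), against 0.448. The points compared share the same 6 arrays.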

How the data were processed

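Total RNA of whole testes was measured on 6 arrays, 3 Wt and 3 Fn, and the authors deposited 1 MAS5 signal per probe set, a linear intensity, with the arrays already scaled to a common level. MAS5 is named without a version in the submitters' processing notes. Probe sets were named from the platform annotation, in which 34945 of 45037 had 1 gene, 932 several and 9160 none. Those with 1 gene were used, and 34741 of them matched RefSeq genes of GRCm38.p6 by identifier, with 0 symbols changed. RefSeq's promoter table for this assembly held 5 of the 8 genes.

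The 1 value at 0 was set to 0.1. Log2 signals of the 27022 probe sets at or above the 40th percentile of mean log2 signal were fitted by lmFit of limma 3.58.1 (R 4.3.3), moderated by eBayes with a trend on intensity, and p-values were adjusted by Benjamini-Hochberg over all of them. Intervals are 95% intervals, and the steps were tested on simulated data. The study's text names no test for this array. Differences between 2 genes were tested by exact permutation of the 6 samples, whose smallest two-sided p is 0.10. The number of arrays limits the precision.

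Over probe sets, deviations of same-numbered Wt and Fn arrays from their group means had correlations of 0.13, 0.12 and 0.16. Differently numbered arrays had -0.15 to 0.04. The correlations are weak and the study states no pairing, so whether the numbers pair the samples remains unknown. The errors and p-values given are those of the fit without the pairing unless named as paired, and the paired fit was an alternative. Spearman correlations were 0.951 to 0.961 within and 0.897 to 0.914 between genotypes.

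The 8 genes and all gene lists were chosen with earlier results of these data known. The rule for other named genes took up to 4 genes of smallest p from each pathway list, every gene of a list with 5 or fewer tested, up to 2 from each marker list and the 3 nearest patterns of each of the 8 genes with a change of 1 or more. Ldhb, Slc2a13, Hba-a1, Slc4a1, Mybl1, Vwf, Acrv1, Txndc8, Catsper3, Gdnf and Tssk2 were named after their values were seen. Ccna1, Piwil1, Ovol1 and Spata16 were named because the paper had selected them. As alternatives, the scaling, filter, prior variance and threshold were varied, a pseudocount of 16, array weights or another probe set per gene was used, the replicate block was added, and each array was left out in turn.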

Additional observations from a re-analysis of the deposited data

How the results depend on the processing

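Directions of all 8 genes were kept under every alternative, and their calls too except for Bsg and Emb. Bsg changed by -0.092 after quantile normalization (adjusted p = 0.22 from limma), by -0.22 without the intensity trend (adjusted p = 0.083) and by -0.22 at a threshold of adjusted p under 0.01, where its adjusted p of 0.010 was not past it. Emb changed by 0.48 with the mean of all its probe sets (adjusted p = 0.12), a mean that takes in the dim probe set under the filter. With the same mean, which also takes in the dim probe set of Slc16a1, the difference between Slc16a3 and Slc16a1 turned to -0.12. With the brightest probe set free of an s, x or a suffix, an alternative chosen after seeing the data, Slc2a3 changed by -3.07. With the replicate block, the counts stayed at 4 lower and 4 higher of the 8 genes. Among the listed genes the paired fit changed the call of the spermatocyte marker Mybl1 (adjusted p = 0.083 without and 0.0081 with the block, which makes 12 of 12 lower) and of the endothelial marker Vwf (0.039 and 0.059, which leaves 2 of 8 higher). Over the alternatives the change ran from -3.99 to -3.66 for Slc16a7 and from -3.07 to -1.52 for Slc2a3, and 19 to 30 genes of the 5 carrier and enzyme lists were called higher. Detection calls were not analysed here, so a signal near the filter level may be background.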
